A study of Mus musculus with 1479 samples.

Results

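The ADAMTS proteases and ADAMTS-like proteins described here are 10 genes of the mouse urinary bladder, 7 secreted proteases (Adamts1, Adamts2, Adamts4, Adamts5, Adamts9, Adamts12 and Adamts15) and 3 ADAMTS-like genes (Adamtsl1, Adamtsl2 and Adamtsl3). They were chosen by name from 46517 gene rows, 24 of which carry an Adamts or Adamtsl symbol. The study sequenced single bladder cells with Smart-seq2, which copies whole transcripts and uses no molecular identifiers. The 1479 cells came from adult males of 10 to 20 weeks and carry 1 of 11 cluster numbers, assigned by the authors from the same expression values. The study described cluster 10 (8.45% of cells) as vascular mural cells, a name that covers pericytes and vascular smooth muscle cells, and cluster 5 (76 cells) as sub-epithelial fibroblasts. The other 9 clusters (1278 cells) were taken as fibroblasts, with cluster 4 (23 cells) left undefined.

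Cells came from 4 reporter lines and from C57BL6 mice without a reporter. PdgfrbGFP gave 810 cells (54.8%), Cspg4dsRED 13.7% and Acta2GFP 8.72% of all cells, each from a transgene in which the named promoter drives the fluorescent protein. PdgfraGFP gave 9.94% of cells and is a knock-in with a nuclear fluorescent protein. The C57BL6 cells (12.8%) were sorted with antibodies to the PDGF receptors, and cells with the endothelial surface protein CD31 were gated out. PdgfraGFP gave no cell of cluster 10 while Acta2GFP gave none of cluster 5. Cluster 10 held 65 cells of Cspg4dsRED, 45 of PdgfrbGFP, 12 of Acta2GFP and 3 of C57BL6. No label says which animal a cell came from, and some mice of the study carried more than 1 reporter, so treating the line as the unit of replication is an assumption. Line and plate coincide in part, since C57BL6 cells filled a plate of their own while PdgfrbGFP cells were on 3 plates.

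ADAMTS proteases are zinc enzymes that leave the cell as inactive precursors and act in the extracellular matrix. Adamts1, Adamts4, Adamts5, Adamts9 and Adamts15 belong to the group known for cutting the large proteoglycans versican and aggrecan. Adamts2 removes the amino-terminal propeptide of fibrillar procollagens, and Adamts12 is known as a protease of cartilage oligomeric matrix protein. The ADAMTS-like proteins share the ancillary modules of the family without the protease domain, and Adamtsl2 and Adamtsl3 are known to associate with fibrillin microfibrils.

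The active site separates both groups in the reference sequence. The coding stretch of the zinc-binding motif was searched in the longest coding transcript of each gene (GENCODE release M21, GRCm38) and was found once in 7 of 7 proteases and in 0 of 3 ADAMTS-like genes. It is shown because it marks which members can bind the catalytic zinc. The capitals mark the codons of the 3 zinc-binding histidines and of the glutamate.
Adamts1: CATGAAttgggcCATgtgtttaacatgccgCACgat
Adamts2: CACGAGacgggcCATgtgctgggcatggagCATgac
Adamts4: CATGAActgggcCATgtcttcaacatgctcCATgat
Adamts5: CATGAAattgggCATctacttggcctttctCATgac
Adamts9: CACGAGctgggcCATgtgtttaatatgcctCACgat
Adamts12: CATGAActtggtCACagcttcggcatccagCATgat
Adamts15: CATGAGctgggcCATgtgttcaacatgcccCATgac
Each stretch has 36 bases and spans an intron, so that each lies in a pair of neighbouring exons. In Adamts1, on the minus strand of chromosome 16, it lies in exons 3 and 4 of 9 between positions 85799188 and 85799545. Adamts5 lies on the same chromosome and strand, with the stretch in exons 2 and 3 of 8 between 85878012 and 85887826. In Adamts2, on chromosome 11, it lies in exons 7 and 8 of 22 between 50775403 and 50776137. Adamts4 and Adamts15 shared 32 of the 36 bases and Adamts1 and Adamts9 shared 31. The least alike pairs, Adamts5 with Adamts9 and Adamts9 with Adamts12, shared 20 bases.

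Depth and identity of the cells set the frame for these values. Total reads per cell ran from 50276 to 1446059 with a median of 214893, and the median of a line lay between 120376 (PdgfraGFP) and 293659 (C57BL6). Levels below are scaled to 500000 endogenous reads in each cell. A line's level is the mean of its cells, and a class's level is the mean of its lines that had at least 3 cells. The summed level of 6 mural markers was 6758 to 9169 per line in cluster 10 and 40.1 to 108.7 in the other fibroblast clusters. The summed level of 4 sub-epithelial markers was 993 to 3018 in cluster 5 and 36.5 to 125.1 in the other fibroblast clusters. Cluster 10 held 253.8 to 1309 of 5 fibroblast markers, against 8770 to 12022 in the other fibroblast clusters, and cluster 5 held 273.04 to 650 of the mural markers. Of other cell types, 5 endothelial markers summed to at most 53.9 in cluster 10 and 5 urothelial markers to at most 88.7 in cluster 5, and of 3 mesothelial markers 1 was detected in cluster 10, at up to 61.4. The visceral smooth muscle list (Actg2, Des, Cnn1 and Synm) reached 501 to 2681 in cluster 10, and these genes are also used by vascular smooth muscle.

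In the fibroblast clusters outside cluster 5, Adamts2 was the most abundant member per length of exon, at 36.8 ± 5.19 reads per 500000 and kilobase (SD, n = 5 lines). Adamts1 followed at 20.999 ± 10.8. The gap from Adamts2 to Adamts1 was larger than both SDs, while that from Adamts1 to Adamtsl3, the next member, was less than the larger SD. Adamtsl3 (10.5 ± 2.19), Adamts5 (8.78 ± 0.930), Adamtsl2 (7.58 ± 2.00) and Adamtsl1 (6.48 ± 1.86) formed a middle group whose neighbours differed by less than the larger SD. Adamts15 (1.32 ± 0.437), Adamts4 (0.915 ± 0.763), Adamts12 (0.461 ± 0.328) and Adamts9 (0.0888 ± 0.0681) were low. In cluster 10 the order changed, with Adamts1 first at 110 ± 76.6 per kilobase (n = 4 lines) and Adamts2 sixth at 1.98 ± 1.4997. In cluster 5 Adamts2 was again first at 18.8 ± 4.02 per kilobase (n = 4 lines).

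**Figure D1:**
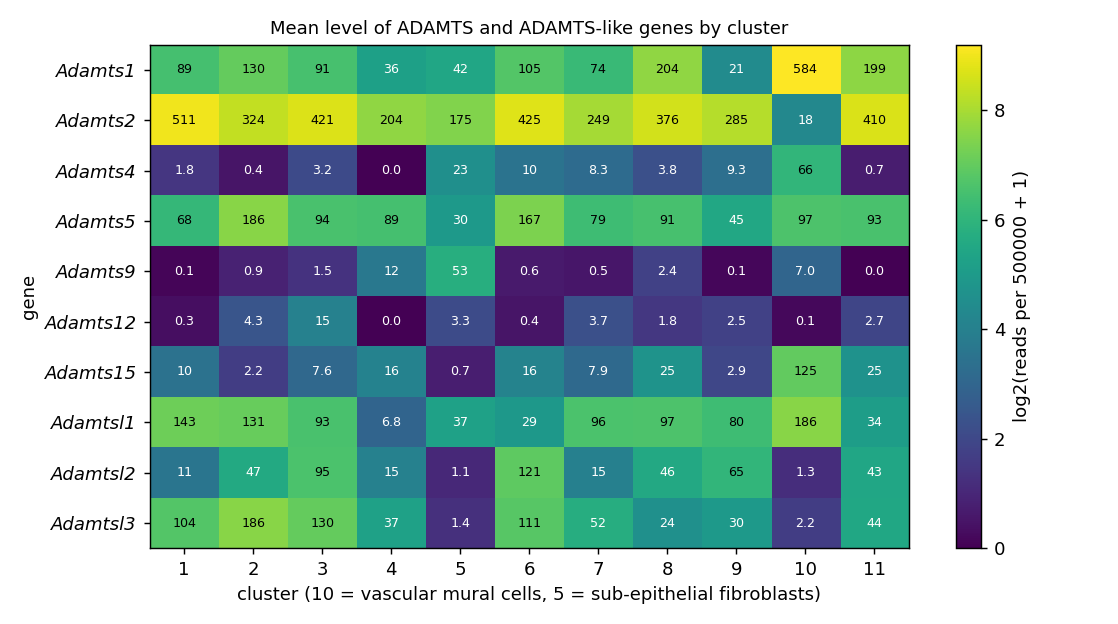
Mean level of the 10 genes (rows) in clusters 1 to 11 (columns), printed in reads per 500000 and coloured on a log2 scale after adding 1. Adamts1 stands out in cluster 10 at 584, Adamts2 is at 175.1 or above in each cluster but cluster 10, and Adamtsl2 and Adamtsl3 are at their lowest in clusters 5 and 10.

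The share of expression carried by single cells differed among members. Over all cells, Adamts2 had a read in 1369 cells (92.6%), Adamts1 in 1165 (78.8%) and Adamts5 in 1139 (77%), while Adamts12 had one in 8.32% and Adamts9 in 14% of cells. The 74 cells with the most reads of a gene held 24% of all Adamts2 reads but 98% of Adamts12, 93.5% of Adamts9, 92.1% of Adamts4 and 91.5% of Adamts15 reads. The levels of these last 4 genes therefore rest on few cells. A cell had reads of a median of 4 members in the fibroblast clusters and of 3 members in cluster 10 when each cell was thinned at random to 50000 reads.

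The first comparison asked which members distinguish mural cells from fibroblasts. Mural cluster 10 had more Adamts1 and far less Adamts2, Adamtsl2 and Adamtsl3 than the fibroblast clusters. Counts were summed per line and class in the 4 lines with at least 3 cells of both classes and tested by edgeR's quasi-likelihood method in a model that blocks on the line. A call needed a log2 fold change of at least 2 in size and a p, adjusted over all genes by Benjamini-Hochberg, under 0.05. Of 10 members tested, 4 were called, 1 higher and 3 lower. Over all 16092 genes tested, 6.2% were called, 2.17% higher and 4.02% lower. Since cluster numbers came from these expression values, a call says that a difference recurred from line to line, and it does not test the clusters themselves. The median log2 fold change was 0.48 over the members and -0.93 over all genes. With the median gene set to 0, 69% of all calls were higher in place of 35.1%, and the same 4 members were called, joined by Adamtsl1.

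Adamts1, a versican-cutting protease with thrombospondin repeats, had a level in cluster 10 of 1093 in Acta2GFP, 718 in PdgfrbGFP, 336.8 in C57BL6 and 188.6 in Cspg4dsRED cells. In the fibroblast clusters of the same lines it was 196.3, 131.2, 74.1 and 46.7. Each line was higher in cluster 10 than in its own fibroblasts, but the ranges of both classes overlapped, since the lowest mural line lay below the highest fibroblast line. The log2 fold change was 2.03 ± 0.41 (SE), with an adjusted p of 0.00378 by edgeR. It stood at the fold threshold: the value was 1.94 without PdgfrbGFP, 2.00 (just under the threshold) without C57BL6 and 1.85 without a filter on low counts, and the call was lost in each of these.

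The mural Adamts1 level also moved with the plate. On the plate that held both Acta2GFP and PdgfrbGFP cells it was 1093 and 1007 in cluster 10, against 455 and 518 for PdgfrbGFP cells on 2 other plates. The fibroblasts on the shared plate were at 196.3 and 106.6, and those of PdgfrbGFP on the other plates at 145.7 and 141.5. In each of the 7 combinations of plate and line with at least 3 cells of both classes, cluster 10 was higher. The summed level of 8 immediate-early genes (Fos, Jun, Egr1 and others, known to be switched on within minutes of a stimulus such as tissue dissociation) was 14089, 11708, 5638 and 11662 in cluster 10 of Acta2GFP, PdgfrbGFP, C57BL6 and Cspg4dsRED. In the other fibroblast clusters it was 4181 to 6044 and in cluster 5, where the Adamts1 level was 41.9, 1132 to 2655. Cluster 4 (2 lines) had sums of 5427.5 and 10458 with an Adamts1 level of 36.1, or of 95.9 when the reads of all its cells were pooled, including those of lines with fewer than 3 cells. The part of these genes in the Adamts1 difference was not tested.

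**Figure D2:**
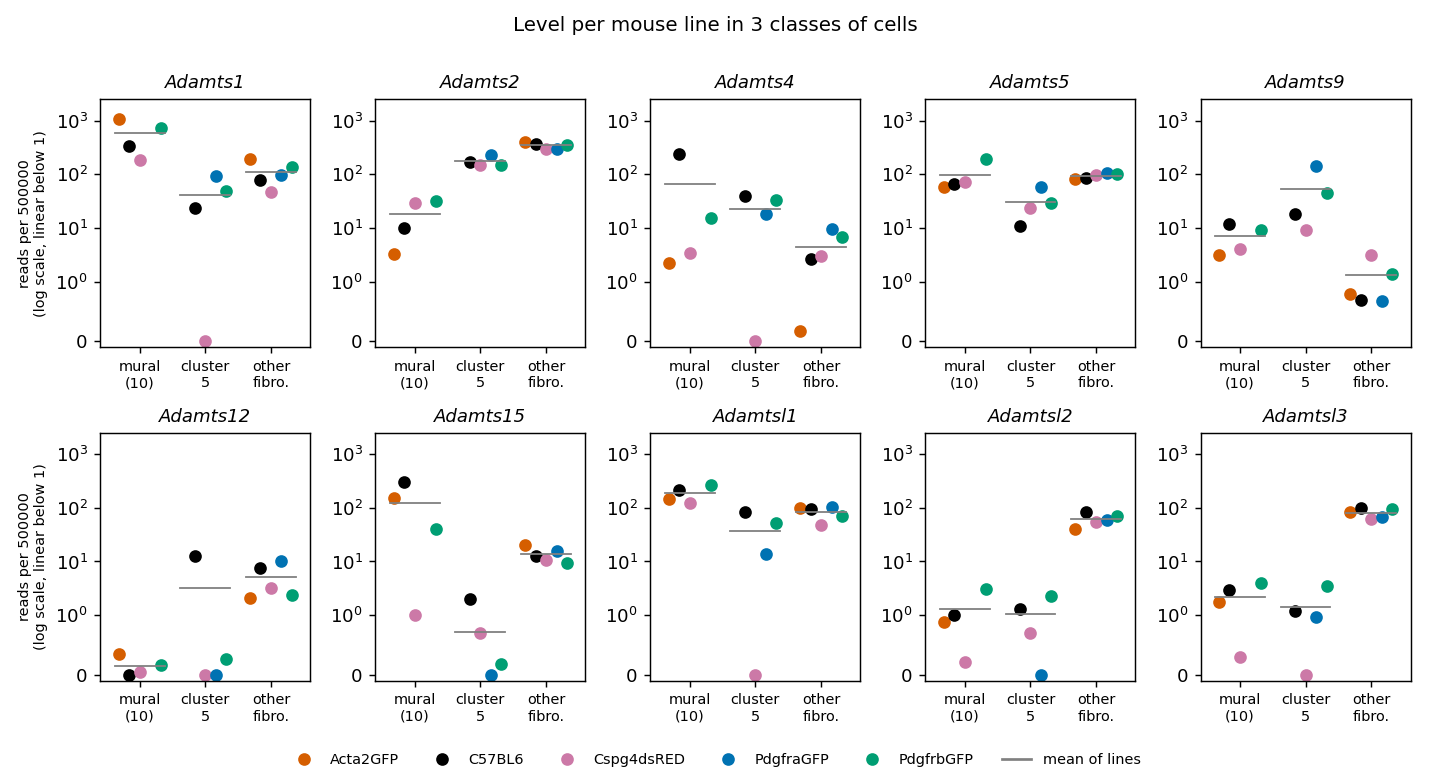
Level of each gene in reads per 500000 (log axis, linear below 1) in mural cluster 10, cluster 5 and the other fibroblast clusters, with 1 point per mouse line and a grey bar at the mean of the lines. For Adamts2, Adamtsl2 and Adamtsl3 the mural points lie below all points of the fibroblast clusters outside cluster 5, and for Adamtsl2 and Adamtsl3 they overlap those of cluster 5, while for Adamts1 each mural line lies above its own fibroblasts but the ranges overlap.

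Adamts2, the procollagen N-propeptidase, was lower in each mural line. Its level in cluster 10 was 31.8 in PdgfrbGFP, 28.9 in Cspg4dsRED, 9.97 in C57BL6 and 3.32 in Acta2GFP cells, against 345.4, 291.96, 357.5 and 402.2 in the fibroblast clusters. The highest mural line was far below the lowest fibroblast line. The log2 fold change was -4.74 ± 0.74 (edgeR adjusted p = 0.000316), and it was called in all 12 alternatives tried. At 50000 reads per cell, 42.4% of mural cells (exact 95% interval 33.6 to 51.6%) still had a read, against 93.2% (91.7 to 94.6%) of cells in the fibroblast clusters outside cluster 5.

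Adamtsl2 and Adamtsl3, the microfibril-associated members, were lower in cluster 10 and in cluster 5 alike. Adamtsl2 was at 3.01 in PdgfrbGFP, 1.00 in C57BL6, 0.889 in Acta2GFP and 0.221 in Cspg4dsRED mural cells, and at 65.7, 75.7, 39.7 and 52.9 in the fibroblast clusters. These mural levels rest on 72, 1, 3 and 3 reads. Adamtsl3 was at 3.90, 2.88, 1.75 and 0.306 in the mural cells of PdgfrbGFP, C57BL6, Acta2GFP and Cspg4dsRED, and at 90.3, 92.6, 83.6 and 59.96 in the fibroblasts. The ranges of both classes lay apart for both genes. The log2 fold change was -6.18 ± 1.28 for Adamtsl2 (edgeR adjusted p = 0.00486) and -5.89 ± 1.16 for Adamtsl3 (edgeR adjusted p = 0.00315). The Adamtsl2 call was lost without Cspg4dsRED, where the value was -5.41 with an adjusted p of 0.0612, and the adjusted p of its alternatives ran from 2.32e-08 to 0.0612.

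In cluster 5, Adamtsl2 was at 2.26 in PdgfrbGFP, 1.31 in C57BL6, 0.697 in Cspg4dsRED and 0 in PdgfraGFP cells, against 68.8, 82.2, 54.1 and 58.1 in the other fibroblast clusters. Adamtsl3 was at 3.42 in PdgfrbGFP, 1.205 in C57BL6, 0 in Cspg4dsRED and 0.963 in PdgfraGFP cells of cluster 5, against 94.5, 100.5, 61.3 and 67.1. Cluster 5 lay below the others in 4 of 4 lines and the ranges did not overlap. The log2 fold change was -6.66 ± 1.15 for Adamtsl2 (edgeR adjusted p = 0.0178) and -6.40 ± 0.98 for Adamtsl3 (edgeR adjusted p = 0.00801). Both calls held in all 12 alternatives.

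The reads that remained were few per cell. At 50000 reads per cell, 0 mural cells had 5 or more reads of Adamtsl2 or of Adamtsl3, which at a limit of 3 counts allows up to 2.40% of them (exact 95% upper bound 2.91%). In cluster 5 it was 0 of 76 cells, which allows up to 3.95% (exact upper bound 4.74%). In the other fibroblast clusters 22.6% of cells (20.4 to 25.04%) reached 5 reads of Adamtsl2 and 42.9% (40.2 to 45.7%) reached 5 reads of Adamtsl3. In these fibroblasts 382 of 1272 cells (30.03%) had a read of both genes, against 25.9% for the product of the single shares. The same values were 5.6% against 1.34% in mural cells and 2.63% against 3.60% in cluster 5.

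The start regions of the 4 genes called in mural cells are shown because these genes separate the classes. RefSeq sequences of 250 bases before to 50 after the start were given for 6 of the 10 members, and are printed for the 4 of them called in cluster 10 (GRCm38.p6, 5′ to 3′ along the gene). The capitals mark GGGCGG, the Sp1 box, and TATAAA, on either strand.
Adamts1, chr16:85803064-85803363, minus strand: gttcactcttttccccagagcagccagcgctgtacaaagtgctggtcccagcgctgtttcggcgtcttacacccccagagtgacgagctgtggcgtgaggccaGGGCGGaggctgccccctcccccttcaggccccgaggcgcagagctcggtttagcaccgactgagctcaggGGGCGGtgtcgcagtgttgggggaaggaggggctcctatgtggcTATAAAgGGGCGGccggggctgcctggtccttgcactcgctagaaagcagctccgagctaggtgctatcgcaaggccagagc
Adamts2, chr11:50601835-50602134, plus strand: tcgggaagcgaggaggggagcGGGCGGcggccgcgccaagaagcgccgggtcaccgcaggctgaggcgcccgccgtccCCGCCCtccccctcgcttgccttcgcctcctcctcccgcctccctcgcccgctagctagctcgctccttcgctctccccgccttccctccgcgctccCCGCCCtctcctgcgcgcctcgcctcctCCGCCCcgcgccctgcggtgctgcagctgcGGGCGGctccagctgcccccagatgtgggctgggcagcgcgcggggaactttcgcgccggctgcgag
Adamtsl2, chr2:27079129-27079428, plus strand: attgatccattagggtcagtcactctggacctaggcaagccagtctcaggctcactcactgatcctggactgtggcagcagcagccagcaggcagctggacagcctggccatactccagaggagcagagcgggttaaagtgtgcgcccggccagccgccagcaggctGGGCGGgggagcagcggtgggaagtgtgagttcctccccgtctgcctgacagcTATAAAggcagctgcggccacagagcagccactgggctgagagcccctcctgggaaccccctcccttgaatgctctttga
Adamtsl3, chr7:82335444-82335743, plus strand: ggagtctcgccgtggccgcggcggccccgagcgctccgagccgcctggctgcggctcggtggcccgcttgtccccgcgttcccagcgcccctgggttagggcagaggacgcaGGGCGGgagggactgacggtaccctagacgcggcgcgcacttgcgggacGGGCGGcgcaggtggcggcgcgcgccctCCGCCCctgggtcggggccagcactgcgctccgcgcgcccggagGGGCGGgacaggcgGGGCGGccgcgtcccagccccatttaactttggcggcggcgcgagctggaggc
The Adamts1 and Adamtsl2 windows each held 1 TATAAA, which occurs in 13.6% of 32851 promoter windows of this length, and the Adamts2 and Adamtsl3 windows held 0. GGGCGG, present in 35.7% of all windows, was found 3 times in Adamts1, 5 times in Adamts2, once in Adamtsl2 and 5 times in Adamtsl3. The E-box CANNTG (72.3% of windows) was found 0, 3, 2 and 2 times in the same order. Searches on both strands for TGANTCA (7.81% of windows), TGACGT (7.51%), CCAAT (37.4%), GGAATG (14.7%) and the CArG box (1.63%) found no match in the 4 windows. Adamtsl2 and Adamtsl3, which were low in the same clusters, differed in GC content, at 62.3% and 78.7%.

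The other 6 members did not pass the mural test. Adamtsl1, an ADAMTS-like protein of the matrix, was at 262.6 in PdgfrbGFP, 212.99 in C57BL6, 147.9 in Acta2GFP and 122.4 in Cspg4dsRED mural cells and at 69.04, 93.4, 100.2 and 46.1 in the fibroblasts. The ranges lay apart, but the log2 fold change was 1.18 ± 0.59 (edgeR adjusted p = 0.253). With the median gene set to 0 it became 2.12 with an adjusted p of 0.0322, which would pass, and over the alternatives the adjusted p ran from 0.0322 to 0.690. Adamts5, a versican- and aggrecan-cutting protease, was at 96.7 ± 62.8 in mural cells and 89.4 ± 9.77 in fibroblasts (n = 4 lines), with a log2 fold change of -0.23 ± 0.66.

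Adamts15 and Adamts4, versican-cutting proteases like Adamts1, had high values in some mural lines. Adamts15 was at 304.3 in C57BL6, 153.5 in Acta2GFP, 40.99 in PdgfrbGFP and 1.00 in Cspg4dsRED cells of cluster 10, against 8.75 to 20.4 in the fibroblasts of these lines. The C57BL6 value came from 1 of 3 cells, and the log2 fold change of 1.95 ± 1.15 did not pass (edgeR adjusted p = 0.356). Adamts4 was at 241.9 in C57BL6 mural cells, also from 1 of the 3 cells, and at 15.2, 3.48 and 2.26 in PdgfrbGFP, Cspg4dsRED and Acta2GFP. Its log2 fold change was 2.21 ± 1.30 (edgeR adjusted p = 0.356).

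Adamts9 and Adamts12 were low in both classes. Adamts9 was at 3.12 to 11.7 in mural lines and 2.08 to 3.46 in PdgfrbGFP, C57BL6 and Cspg4dsRED fibroblasts, with 0.802 in Acta2GFP fibroblasts. Adamts12 had 4 reads in all mural cells and 2484 in 1354 fibroblasts. Its ranges lay apart (at most 0.346 against at least 2.11), while the log2 fold change of -4.50 ± 1.63 missed the threshold with an edgeR adjusted p of 0.0983. It passed in 3 of 12 alternatives, over which the adjusted p ran from 0.0105 to 0.323.

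The second comparison asked what sets the sub-epithelial fibroblasts of cluster 5 apart from other fibroblasts. Of the 10 members, 2 were called, Adamtsl2 and Adamtsl3, both lower as described above. Of 16145 genes tested in 4 lines, 0.762% were called, 0.297% higher and 0.465% lower. The members' median log2 fold change was -2.30, against -0.77 over all genes. With the median gene set to 0, 70.9% of all calls were higher in place of 39%, and Adamts9 joined the 2 called members. At an unadjusted p under 0.05 there were 7 of 10 members, against 13.2% of all genes, and DESeq2 called 5, against 8.68% of all genes.

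Adamts9, a versican-cutting protease of the cell surface, had the highest fold change of the members in cluster 5. Its level in cluster 5 was 141.7 in PdgfraGFP, 45.02 in PdgfrbGFP, 17.9 in C57BL6 and 9.24 in Cspg4dsRED cells, against 0.684, 1.41, 0.701 and 3.09 in the other fibroblast clusters. Cluster 5 was higher in 4 of 4 lines and the ranges did not overlap, although the Cspg4dsRED value came from 8 reads in 1 of 3 cells. The log2 fold change was 5.17 ± 1.23 and did not pass (edgeR adjusted p = 0.0974). It passed in 7 of 12 alternatives, with an adjusted p between 4.26e-07 and 0.414, among them the fit without Cspg4dsRED (5.99, adjusted p = 0.0158). At 50000 reads per cell, 48.7% of cluster 5 cells (37 to 60.4%) had an Adamts9 read against 4.17% (3.14 to 5.41%) of the other fibroblasts and 12.8% (7.50 to 19.95%) of mural cells. Adamts9 shares 1381 exon bases with A730049H05Rik, on the opposite strand, which had 585 reads in all cells against 3123 for Adamts9.

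Adamts4 had a read at 50000 reads per cell in 27.6% of cluster 5 cells (18 to 39.1%) against 9.36% (7.81 to 11.1%) of the other fibroblasts. Its level was 40.3 in C57BL6, 32.9 in PdgfrbGFP, 18.4 in PdgfraGFP and 0 in Cspg4dsRED cells, and the log2 fold change of 1.4 ± 1.59 did not pass (edgeR adjusted p = 0.823). In PdgfraGFP 93.8% of these reads came from 1 cell. Reads of Adamts9 and Adamts4 fell in the same cell in 11 of 76 cluster 5 cells (14.5%), close to the product of their shares of 13.5%.

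The remaining members had negative values in cluster 5 that did not pass. Adamts5 was at 30.04 ± 19.5 in cluster 5 against 97.7 ± 8.75 elsewhere (n = 4 lines), with ranges apart and a log2 fold change of -2.19 ± 0.63 (edgeR adjusted p = 0.172). Adamts2 was at 175.1 ± 37.5 against 329.3 ± 41.4, with ranges apart. Its log2 fold change of -1.15 ± 0.30 was under the fold threshold, and its edgeR adjusted p of 0.142 did not pass either. Adamts15 had 31 reads in all 76 cells, at a level of 0.711 ± 0.882 against 12.03 ± 2.93, and a log2 fold change of -4.67 ± 1.66 (edgeR adjusted p = 0.236). DESeq2 called both Adamts5 and Adamts15. Adamts1 and Adamtsl1 were lower in 4 of 4 lines with overlapping ranges, with values of -2.25 ± 0.97 and -2.35 ± 1.18. Adamts12 was lower in 3 of 4 lines, with a log2 fold change of -3.15 ± 1.93 (edgeR adjusted p = 0.590).

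**Figure D3:**
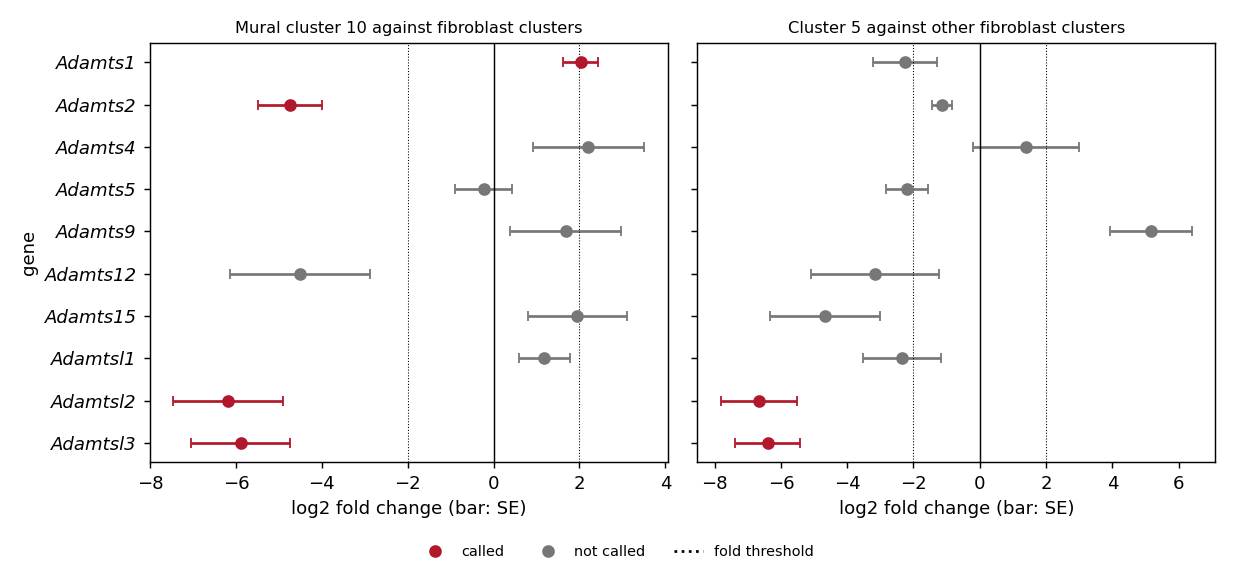
Log2 fold change of each gene with its SE from edgeR, for mural cluster 10 against the fibroblast clusters (left) and cluster 5 against the other fibroblast clusters (right). Red points were called and dotted lines mark the fold threshold of 2, with 4 called on the left and 2 on the right.

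**Figure D4:**
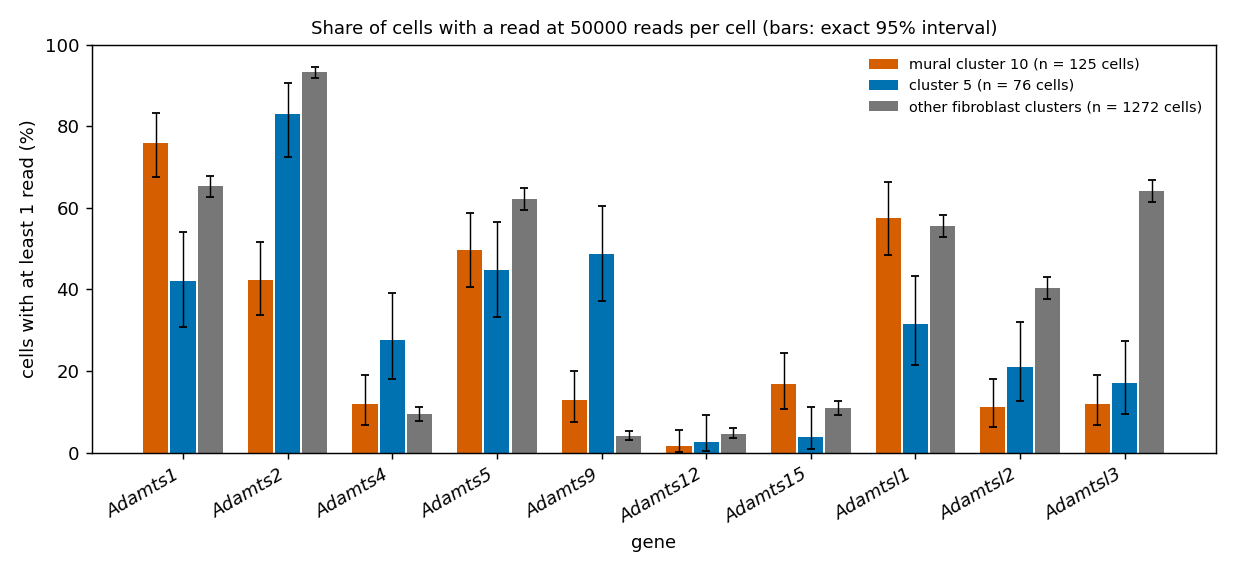
Percent of cells with at least 1 read of each gene after thinning to 50000 reads per cell, with exact 95% intervals that cover counting error only, in mural cells, 76 cells of cluster 5 and 1272 cells of the other fibroblast clusters. Adamts9 is most frequent in cluster 5 at 48.7%, and Adamts2 is least frequent in mural cells at 42.4%.

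Among the fibroblast clusters themselves, a single test per gene asked whether its level differed in any of clusters 1 to 9 and 11. Adamts9 (edgeR adjusted p = 0.00312), Adamtsl3 (0.0148) and Adamtsl2 (0.0268) were called, 3 of 10 members, against 6.01% of 15237 genes tested. Each of these calls was lost when certain lines were left out, and the share of all genes called also fell in those fits. Adamtsl2 was lost without Acta2GFP, C57BL6, Cspg4dsRED or PdgfraGFP (adjusted p 0.0594 to 0.180), Adamtsl3 without C57BL6, PdgfraGFP or PdgfrbGFP (0.0553 to 0.270), and Adamts9 without PdgfrbGFP (0.0546). The test includes cluster 5.

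Among the fibroblast clusters outside cluster 5, the highest Adamtsl2 levels were in cluster 6 at 120.8 ± 50.1 (n = 5 lines) and cluster 3 at 95.3 ± 14.3 (n = 4 lines), and low levels in cluster 1 at 10.97 ± 14.1 (n = 4 lines), cluster 7 at 14.996 ± 11.6 (n = 5 lines) and cluster 4 at 15.2 ± 21.6 (n = 2 lines). With the reads of all cells of a cluster pooled in place of the mean of lines, these 3 were at 21.5, 34.2 and 14.9, so their order is not fixed. Adamtsl3 was at 185.9 in cluster 2 (from 73.4 to 343.7 over 5 lines) and 129.6 ± 12.7 in cluster 3 (n = 4 lines), whose pooled levels were 134.6 and 137.1, and among the same clusters it was lowest in cluster 8 at 23.7 ± 17.9 (n = 5 lines). In cluster 1 Adamtsl3 was at 104.4 ± 131.7, a mean with an SD larger than itself. Adamts2 ran from 511 ± 55.2 in cluster 1 (n = 4 lines) down to 204.3 ± 39.98 in cluster 4 (n = 2 lines) and 175.1 ± 37.5 in cluster 5. When the 11 clusters were ordered by level, 6 of the 100 neighbouring pairs over the 10 members lay apart by more than both SDs. For Adamts1, Adamts4, Adamts5, Adamts12 and Adamtsl1 it was none of 10. Ordering puts the closest levels side by side, so a low count does not show that clusters further apart are alike.

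Each of the 9 other fibroblast clusters was then compared with the rest, with clusters 5 and 10 left out and a log2 fold threshold of 1. None of the members was called in any of the 9 comparisons by edgeR, and 24 of 89 member tests had an unadjusted p under 0.05, against 8.78% of all gene tests. DESeq2 called 8 of 89 member tests, against 3.73% of all gene tests. Over all genes, edgeR called 0.0433% in cluster 1, 0.00647% in cluster 2, 0.00608% in cluster 3, 0.746% in cluster 4 and 0.0246% in cluster 6. For clusters 7, 8, 9 and 11 the shares were 0.407%, 0.0183%, 0.0454% and 0.0209%. The smallest unadjusted p-values belonged to Adamtsl3 in cluster 3 (log2 fold change 1.09 ± 0.13, edgeR adjusted p = 0.0710), Adamts2 in cluster 7 (-0.62 ± 0.11, adjusted p = 0.0574) and Adamts1 in cluster 8 (0.98 ± 0.20, adjusted p = 0.308).

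The genes most like each member over 43 sums of cluster and line are given as a description, since the sums share lines, plates and depth. Likeness was the Pearson correlation of log2(level + 1) over 9848 genes with a mean level of at least 5. Adamts2 was closest to Selenop (r = 0.91), Ltbp4 (0.90) and Bicc1 (0.89). Adamts9 was closest to Tnc (0.78), which codes for tenascin C, Mc5r (0.78), a melanocortin receptor, and Moxd1 (0.78). Adamts1 was closest to Atp2a2 (0.78), the sarcoplasmic calcium pump, Mat2a (0.76) and Tspyl1 (0.72). Adamtsl2 was closest to Dpt (0.73), the matrix protein dermatopontin, Scn7a (0.72) and Ace (0.70), and Adamtsl3 to Slc43a3 (0.74), Gm16702 (0.73) and AW551984 (0.73). Among the members, the highest correlation was 0.53 (Adamts2 with Adamtsl3) and the lowest -0.52 (Adamts9 with Adamtsl3). The closest genes of the sparse members, Rab6b for Adamts15 (0.72), Cenpx for Adamts4 (0.66) and Tbl2 for Adamts12 (0.64), rest on few cells. Those of Adamts9, also sparse, have the same limit. The closest genes of Adamts5 and Adamtsl1 were Bptf (0.64) and Gm27027 (0.74).

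The matrix proteins that ADAMTS enzymes cut or bind were mostly lower in mural cells. Of 29 listed substrates and binding partners, 23 were tested and 18 were called in cluster 10, 16 lower and 2 higher, against 4.02% of all genes lower and 2.17% higher. Vcan, which codes for versican, was at 2.24 ± 2.55 in mural cells (n = 4 lines), 743 ± 415 in cluster 5 (n = 4) and 132.4 ± 57.8 in the other fibroblasts (n = 5). Its log2 fold change was -6.59 ± 1.06 in cluster 10 (edgeR adjusted p = 0.000406). In cluster 5 it was 1.92 ± 0.32 with an adjusted p of 0.0139, just under the fold threshold. The procollagen genes cut by Adamts2 were lower in mural cells together with it, Col1a1 by -3.89 ± 0.27, Col1a2 by -3.19 ± 0.29, Col3a1 by -3.47 ± 0.38, Col5a1 by -3.93 ± 0.69 and Col5a2 by -3.14 ± 0.72. In cluster 5, where Adamts2 was at -1.15, the same 5 genes had positive log2 fold changes of 0.54 to 1.12, under the fold threshold, with an edgeR adjusted p of 0.000281 for Col1a2, 0.000619 for Col1a1, 0.0289 for Col3a1, 0.0744 for Col5a2 and 0.113 for Col5a1. In mural cells the log2 fold change was -4.16 ± 0.60 for the fibrillin gene Fbn1. For the microfibril genes Mfap2 and Mfap5 it was -4.41 ± 0.88 and -4.58 ± 1.03 in the same cells.

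Ltbp1, a latent TGF-beta binding protein, was higher in mural cells, at 540 ± 190.6 against 108.3 ± 28.3 in the fibroblast clusters outside cluster 5 (log2 fold change 2.16 ± 0.44, edgeR adjusted p = 0.00412). Acan, which codes for aggrecan, was the other gene called higher, but it had only 59 reads in mural cells, from 2 of 4 lines, and 1 read in all fibroblasts. At equal depth this is a ratio of 1093, with a counting interval of 188.7 to 43901 that treats reads as independent molecules and leaves out the variation between cells and lines. Also lower in mural cells were Fn1, Thbs2, Dcn, Ltbp2, Ltbp4, Nid1 and Nid2, with log2 fold changes from -6.07 to -3.44. In cluster 5, 2 of the 21 tested were called, both lower, against 0.465% of all genes. They were Mfap5 (-4.05 ± 0.44) and Ltbp2 (-5.44 ± 1.09). Fn1 (1.70 ± 0.27, edgeR adjusted p = 0.00908) and Thbs2 (1.42 ± 0.23, adjusted p = 0.0124) had positive values there that missed the fold threshold, as Vcan did. Fbn1 missed it with a negative value (-1.84 ± 0.30, edgeR adjusted p = 0.0125).

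The inhibitors differed among each other. Of 6 tested in cluster 10, 3 were called lower, the inhibitors Timp1 (-5.80 ± 1.4) and Timp2 (-3.31 ± 0.52) and the clearance receptor Lrp1 (-2.41 ± 0.40), beside the same 4.02% of all genes. Timp3, the inhibitor known for its action on ADAMTS proteases, was at 1625 ± 914 in mural cells, 656 ± 136.8 in the other fibroblasts and 121.99 ± 63.6 in cluster 5. Its log2 fold change of 1.25 ± 0.27 in cluster 10 was under the fold threshold (edgeR adjusted p = 0.00655), and in cluster 5 it was called lower at -2.89 ± 0.42 (edgeR adjusted p = 0.00622). Of 9 activating or modifying genes tested in cluster 10, 4 were called, all lower, against 4.02% of all genes. They were Pcolce (-2.36 ± 0.37) and Pcolce2 (-5.94 ± 0.88), enhancers of procollagen processing, the procollagen C-proteinase Bmp1 (-4.45 ± 0.97) and the proprotein convertase Pcsk5 (-6.11 ± 1.11). In cluster 5, Pcolce2 (-6.49 ± 0.74) was the only one of 10 called, against 0.762% of all genes.

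Of the 15 family genes outside the 10, 11 were tested in cluster 10 and 1 was called, Adamtsl5, an ADAMTS-like gene, a share near the 6.2% of all genes. Adamtsl5 was at 47.4 ± 31.5 in mural cells, 62 ± 77.3 in cluster 5 and 191.97 ± 86.95 in the other fibroblasts, and was called lower in cluster 10 (-2.64 ± 0.77, edgeR adjusted p = 0.0453) and in cluster 5 (-2.25 ± 0.41, edgeR adjusted p = 0.0265). Adamts13, Adamts16, Adamts18 and the related Papln were almost without reads in cluster 10, with at most 2 each.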

How the data were processed

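Single cells of dissociated mouse bladder were sorted into plates and made into Smart-seq2 libraries. The authors deposited 1 table of unnormalised counts, with 1479 cells as columns and 46517 genes and 92 spike-ins as rows. Its methods say that reads were demultiplexed with bcl2fastq, trimmed, mapped to GRCm38 with TopHat2 (with Bowtie or Bowtie2), cleared of what the methods call doublets and counted with featureCounts (Subread). The annotation release and strand setting are not given in the sources used here, so overlapping genes on opposite strands can share reads. Without molecular identifiers, reads are not independent molecules, and shallow cells were removed by the authors. Doublet cells were limited by the sort gates and a limit on genes per cell, and no caller was run.

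Symbols came from GENCODE M21 for 46005 rows. Each cell was assigned by its column name to its label for line and cluster, and 0 columns were left without a sample. Counts were summed per line and class (at least 3 cells in both classes) and tested with edgeR 4.0.16 in R 4.3.3 (TMM, filterByExpr, quasi-likelihood test, line as a block), adjusted over all genes tested. Calls needed an adjusted p under 0.05 and a log2 fold change of 2 (clusters 10 and 5) or 1 (other clusters). Replicate numbers only index cells within a cluster and pair nothing, and the pairing comes from the shared line of the sums. Shares used cells thinned to 50000 reads, which left out 6 cells, with exact Clopper-Pearson 95% intervals. A count of 0 allows 3 counts. Both cover counting error only. The fits were tested on simulated data. Alternatives were DESeq2 1.42.0, other scaling, no filter, thinned cells, no block, sums per plate, cluster 4 left out and each line left out. The members, the gene and marker lists and the tests were chosen with earlier results of these data known. Text names all members and the 1 or 3 genes most like each of them. It also names list genes called for cluster 10 or 5 (a few others were named after their values were seen). Tables and plots used Python 3.11.15, numpy 2.4.6, pandas 2.3.3, scipy 1.17.1, matplotlib 3.10.9 and Biopython 1.88.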

Additional observations from a re-analysis of the deposited data

Results flagged for a closer look

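In 100 groups of 4 or 5 lines with values that differ, 19 had a line far from the others by Dixon's criterion. Chance flags about 1 in 20 groups of normally distributed values, and the groups share lines and members. In several flagged groups the median of the other lines was 0, so the 19 cannot be set against that rate. Most flagged values were low levels held by few cells. In cluster 10, C57BL6 had an Adamts4 level of 241.9 against a median of 3.48 in the other lines, with 100% of its reads in 1 of 3 cells. In the same cluster PdgfrbGFP had an Adamts5 level of 190.4 against 66.5, from 45 cells, with 15.5% of its 3090 reads in the top cell. In cluster 2, Cspg4dsRED stood apart for Adamts5 (469) and Adamtsl1 (351) with 4 cells, of which 1 held 90.8% and 71.2% of the reads. In cluster 6, Acta2GFP had an Adamts2 level of 711 against 344.8, from 6 cells. PdgfraGFP fibroblasts had an Adamts9 level of 21.8 against 2.66 over all fibroblast clusters, and 874 of its 903 reads came from cluster 5.

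PdgfrbGFP was the high line for Adamts4 (6.48), Adamts9 (0.340) and Adamts12 (1.06) in cluster 1, for Adamts4 (2.21) in cluster 2, for Adamts9 (2.55) and Adamts12 (1.57) in cluster 6 and for Adamts9 (1.71) in cluster 7. PdgfrbGFP had more cells than any other line in clusters 1, 6 and 7. C57BL6 was high for Adamts9 in cluster 2 (4.31) and for Adamts12 in clusters 5 (12.8) and 7 (15.8). The remaining values were Adamts12 in cluster 2 of PdgfraGFP (21.005), Adamts4 in cluster 7 of Cspg4dsRED (33.6) and Adamts15 in cluster 7 of Acta2GFP (28.98).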

How the results depend on the processing

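For members called in cluster 10, cluster 5 or among the fibroblast clusters, the calls lost under an alternative are given beside each result. Adamts5 in cluster 10 changed sign at a value near 0, to 0.09 with DESeq2 and with median-of-ratios factors, 0.70 with the median gene at 0 and 0.00 without Acta2GFP, and was lowest at -0.59 without PdgfrbGFP. The share of all genes called in cluster 10 was 6.2%, and it was 18.6% with DESeq2, 15.9% with sums per plate and 2.88 to 5.79% with a line left out. In cluster 5 it was 0.762%, against 8.68% with DESeq2, 0.697% of a larger table with no filter on low counts, 2.09% with thinned cells, 3.001% with sums per plate and 0.559 to 1.31% with a line left out. Among the fibroblast clusters it was 6.01%, against 4.75% with thinned cells, 9.999% with sums per plate and 1.12 to 4.79% with a line left out. Over the 9 other comparisons together it was 0.14%, against 3.73% with DESeq2, 0.258% with thinned cells, 0.0716% without cluster 4 and 0.0382 to 0.103% with a line left out, when 4 to 7 of the 9 could be fitted. Without the replicate block, these shares became 10.6%, 2.43%, 12.2% and 0.318%. The cause of these shifts was not tested.

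Members called in cluster 5 numbered 2 and became 5 with DESeq2. Among the fibroblast clusters they numbered 3, and 1 to 3 with a line left out. In the other clusters they numbered 0, and 8 with DESeq2, 1 with no filter and 1 with thinned cells. Without the replicate block, which pairs the sums of a line, Adamts12 joined the members called in cluster 10, Adamts9 those called in cluster 5 and Adamts2 those called among the fibroblast clusters. Pooling the reads of a cluster's cells moved 14 of the members' levels by more than 1 SD.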
